A study of Mus musculus with 12 samples.

Results

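The 8 genes described here encode the BACH and NRF transcription factors Bach1, Bach2, Nfe2l1 and Nfe2l2, the NRF2 inhibitor Keap1, and the small MAF proteins Maff, Mafg and Mafk. They were taken by symbol from a table of 24421 gene symbols, and all 8 were among the 13281 genes kept by the filter on low counts. The RNA came from KP, a line of mouse lung adenocarcinoma cells labelled with the genotype KrasLSL-G12D/+; Trp53flox/flox, which all groups share. The 4 groups were Bach1 knockout cells (CRISPR/Cas9, guide sgBACH1) with FEM1B siRNA, knockout cells with control siRNA, cells with the control guide sgCTRL and FEM1B siRNA, and control-guide cells with control siRNA. Transfection with siRNA lasted 48 hours, and each group had 3 libraries, which the design text calls biological replicates. The series compared how loss of BACH1 or of FEM1B changes the expression of genes linked to ferroptosis, in which iron-driven lipid oxidation kills the cell. The labels name 1 cell line and do not say whether the knockout cells are 1 clone or a pool, so genotype and line history cannot be told apart. They also name 1 FEM1B siRNA condition, so loss of FEM1B and other effects of that siRNA cannot be told apart. The libraries are bulk cultures, in which fewer cells of a kind and less RNA per cell cannot be told apart.

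BACH and NRF proteins are basic leucine zipper factors of the cap'n'collar (CNC) group, which bind DNA as dimers with a small MAF protein. BACH1 and BACH2 repress, and NRF1 (Nfe2l1) and NRF2 (Nfe2l2) activate, genes with antioxidant response elements (ARE) or MAF recognition elements (MARE), among them Hmox1 and genes of glutathione and iron metabolism. KEAP1 presents NRF2 to the CUL3 ubiquitin ligase, heme binding releases BACH1 from DNA and marks it for degradation, and FEM1B is a substrate receptor of the CUL2 ligase. NRF1 is processed in the endoplasmic reticulum and drives proteasome subunit genes when proteasome activity is low. These proteins are controlled to a large degree after translation, which transcript counts do not show.

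Promoter windows that held an ARE or MARE match are shown, other than those of Nfe2l1, because small MAF genes are themselves described as ARE genes. A link between a match and a change in level was not tested. Each line holds the 250 bases before the RefSeq start site on the coding strand, from GRCm38.p6, and capitals mark the ARE core TGACNNNGC or the MARE arm TGCTGA on either strand. The windows are chr2:75704664-75704913 (minus strand) for Nfe2l2, chr15:79346371-79346620 (plus) for Maff, chr11:120633548-120633797 (minus) for Mafg, chr5:139791286-139791535 (plus) for Mafk and chr16:87698704-87698953 (plus) for Bach1.
Nfe2l2: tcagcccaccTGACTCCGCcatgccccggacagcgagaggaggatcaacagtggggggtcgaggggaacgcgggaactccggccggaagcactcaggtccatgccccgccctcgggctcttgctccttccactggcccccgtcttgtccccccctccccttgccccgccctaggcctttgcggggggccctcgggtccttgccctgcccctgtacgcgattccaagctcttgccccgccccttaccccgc
Maff: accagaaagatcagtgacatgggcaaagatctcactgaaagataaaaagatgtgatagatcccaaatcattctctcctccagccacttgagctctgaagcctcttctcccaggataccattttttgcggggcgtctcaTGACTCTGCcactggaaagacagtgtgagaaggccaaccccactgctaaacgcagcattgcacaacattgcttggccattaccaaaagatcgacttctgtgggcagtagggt
Mafg: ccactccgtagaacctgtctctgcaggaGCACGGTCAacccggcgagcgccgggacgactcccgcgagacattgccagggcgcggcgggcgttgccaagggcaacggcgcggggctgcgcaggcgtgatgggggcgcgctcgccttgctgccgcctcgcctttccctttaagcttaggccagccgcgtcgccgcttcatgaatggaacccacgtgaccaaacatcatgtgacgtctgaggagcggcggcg
Mafk: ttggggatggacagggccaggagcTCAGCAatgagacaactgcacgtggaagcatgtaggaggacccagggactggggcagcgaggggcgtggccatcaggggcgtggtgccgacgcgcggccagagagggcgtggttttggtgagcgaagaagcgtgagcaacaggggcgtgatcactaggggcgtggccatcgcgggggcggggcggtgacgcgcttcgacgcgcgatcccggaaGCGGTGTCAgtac
Bach1: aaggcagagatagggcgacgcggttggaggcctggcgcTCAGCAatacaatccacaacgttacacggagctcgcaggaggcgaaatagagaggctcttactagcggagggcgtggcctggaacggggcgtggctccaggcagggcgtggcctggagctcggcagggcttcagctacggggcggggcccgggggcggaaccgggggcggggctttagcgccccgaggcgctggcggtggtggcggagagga
The ARE core stood in 4 of these windows, beginning at −240 in Nfe2l2, −112 in Maff, −222 in Mafg and −13 in Mafk relative to the start site. Matches were sought in the whole RefSeq window of 300 bases, the 250 before the start site and 50 after it. RefSeq gives 14 windows over the 8 genes, and 1 of the 3 Maff windows held the core. The core occurs in 12.4% of all 32851 RefSeq windows of 300 bases, and in at least 1 window of 14% of genes. The arm TGCTGA occurs in 19.5% of windows and was found in Bach1 at −212, in Mafk at −226 and in 3 of the 5 Nfe2l1 windows. Neither TGAGTCA, found in 5.2% of windows, nor the longer string in which TGCTGA runs into TGAGTCA over a shared TGA, found in 0.155%, lay in any window of the 8 genes, and the windows of Bach2 and Keap1 held none of the 4 motifs. A match describes the letters and says nothing about binding.

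Total counts per library lay between 16539168 and 22196999, so that 1 count was worth 0.0446 to 0.0604 CPM, which are counts scaled to a common library total. Fem1b, the siRNA target, averaged 49.0 ± 4.71 CPM with FEM1B siRNA and 139 ± 2.75 CPM with control siRNA in knockout cells, and 51.7 ± 7.78 against 163 ± 5.15 CPM in control-guide cells (SD, n = 3). Bach1 counts do not check the knockout, since a CRISPR lesion can leave transcript levels as they were. The 9 epithelial markers summed to 7810 to 7960 CPM in knockout cells and 8570 to 9250 CPM in control-guide cells with FEM1B siRNA, and to 7080 to 8000 and 8980 to 9380 CPM with control siRNA. Among them Krt7 averaged 585 CPM in knockout cells against 1440 CPM in control-guide cells with FEM1B siRNA, and 446 against 1730 CPM with control siRNA. Cdh1, which encodes E-cadherin, averaged 615 against 400 CPM and 645 against 322 CPM in the same groups, while Krt8 averaged 2060 to 2160 CPM in each group. The lung lineage factor Nkx2-1 had no count in any library, and Epcam averaged 0.0314 to 1.53 CPM. The 8 leukocyte markers summed to at most 0.976 CPM in any library and the 5 endothelial markers to at most 2.14 CPM. Under control siRNA, the 6 fibroblast markers summed to 8.58 to 10.7 CPM in knockout cells and 23.2 to 25 CPM in control-guide cells. The sums under FEM1B siRNA were 9.55 to 11.2 and 18.3 to 21.6 CPM. Col1a1 made up most of each sum, averaging 8.39 against 22.5 CPM under control siRNA and 9.48 against 18.1 CPM under FEM1B siRNA. Dcn and Lum were at 0 in knockout cells but averaged at most 0.163 CPM in control-guide cells. Pdgfra was higher in knockout cells, at 0.568 against 0.08 CPM and 0.712 against 0.419 CPM. Col3a1 was also higher there under FEM1B siRNA, at 0.0924 against 0.0655 CPM. The part of these marker genes in the genotype differences was not tested.

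Per kilobase of exon, Nfe2l1 was the most abundant of the 8 transcripts in every group, at 56.6 CPM per kilobase in knockout cells with FEM1B siRNA, 55.9 in knockout cells with control siRNA, 72.0 in control-guide cells with FEM1B siRNA and 64.0 in control-guide cells with control siRNA. In the last group Nfe2l2 came next at 30.5, then Maff at 29.1, a gap smaller than the SD of 1.49 for Maff, then Keap1 at 18.1, Mafk at 7.84, Mafg at 7, Bach1 at 5.08 and Bach2 at 0.0653 CPM per kilobase. With FEM1B siRNA Nfe2l2 lay below Maff and Keap1, at 15.4 CPM per kilobase in knockout cells and 14.6 in control-guide cells. Lengths are the merged exons of the GENCODE annotation, and isoform use would change them.

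**Figure D1:**
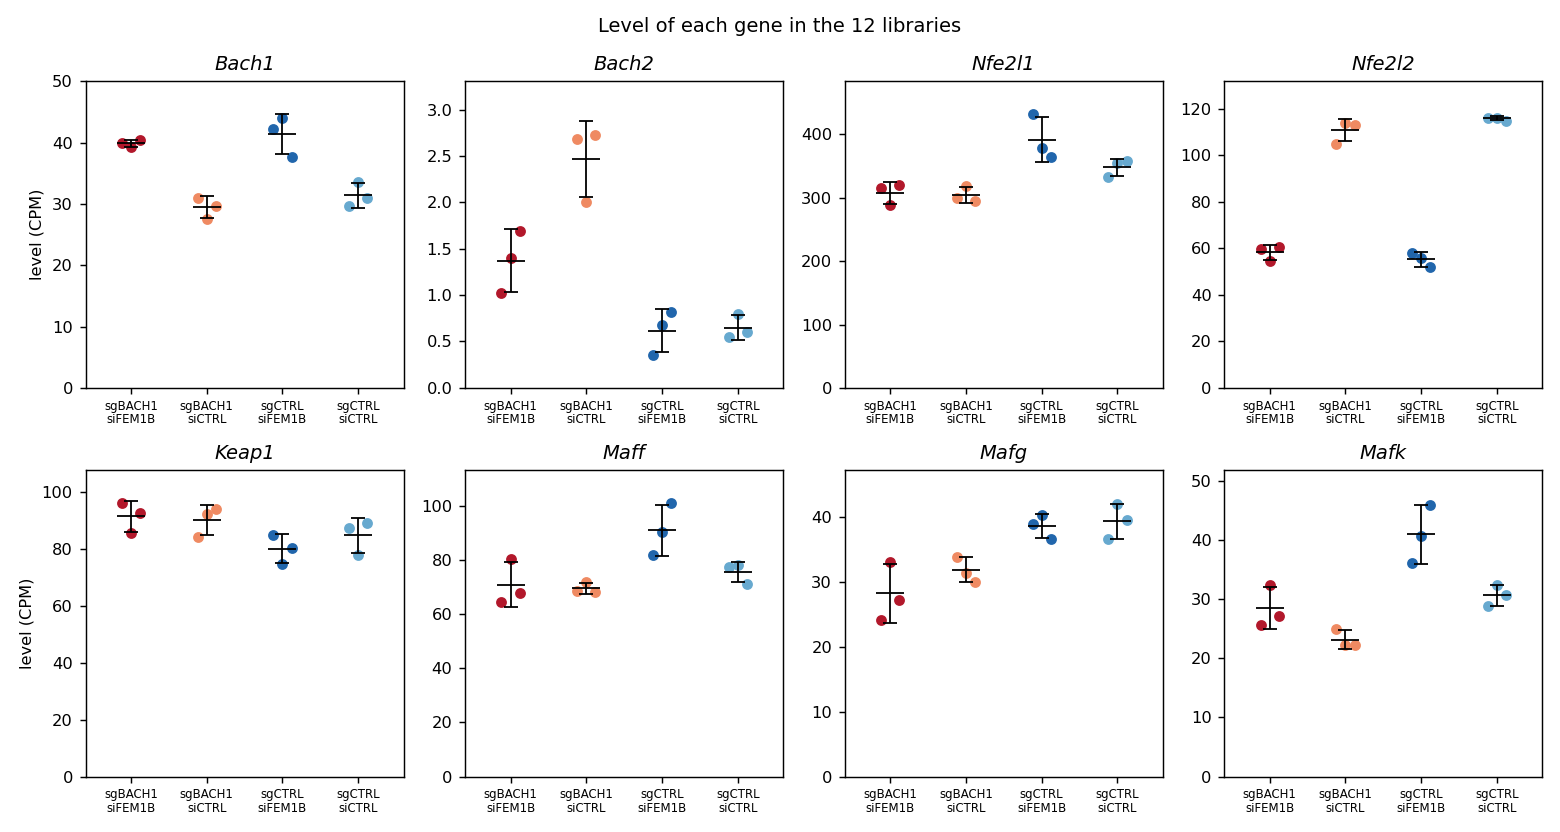
Level of each of the 8 genes in CPM (vertical axes from 0, one panel per gene) in the 3 libraries of each group, with points for libraries and bars for mean ± SD. Nfe2l2 sits between 52 and 60.5 CPM in the 6 libraries with FEM1B siRNA and between 105 and 116 CPM in the 6 with control siRNA, while Keap1 stays between 74.6 and 96.2 CPM throughout.

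Bach1, the heme-sensing repressor (chromosome 16, 87698945 to 87733346, plus strand, GRCm38), was higher with FEM1B siRNA in both genotypes and was not called for genotype. In knockout cells it had 40, 39.3 and 40.5 CPM in the libraries with FEM1B siRNA, against 31, 27.6 and 29.7 CPM with control siRNA. In control-guide cells the values were 42.3, 44.1 and 37.7 CPM with FEM1B siRNA, against 29.6, 33.6 and 31 CPM with control siRNA. The siRNA groups did not overlap in either genotype, and the genotypes overlapped under both siRNAs. Bach1 rose by 0.44 ± 0.08 on the log2 scale in knockout cells (edgeR quasi-likelihood test, adjusted p = 0.000133) and by 0.40 ± 0.08 in control-guide cells (adjusted p = 0.000242), and both calls held under all 21 alternatives. The knockout contrasts were −0.05 with FEM1B siRNA (95% interval −0.21 to 0.10) and −0.09 with control siRNA (−0.25 to 0.07).

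Bach2, the related repressor best known from B cells (chromosome 4, 32238804 to 32586108, plus strand), was close to the floor of the data but higher in knockout cells. It had 21, 26 and 28 counts in knockout cells with FEM1B siRNA and 8, 14 and 15 in control-guide cells with FEM1B siRNA. With control siRNA it had 51, 40 and 59 counts in knockout cells against 12, 17 and 12 in control-guide cells. These counts came to 1.37 ± 0.337 CPM against 0.618 ± 0.235 CPM with FEM1B siRNA, and 2.47 ± 0.41 CPM against 0.649 ± 0.134 CPM with control siRNA. Knockout libraries lay above control-guide libraries under both siRNAs. Bach2 rose in knockout cells by 1.92 ± 0.31 with control siRNA (adjusted p = 3.84e-05), a change exceeded in size by 4.95% of all genes tested, and by 1.15 ± 0.35 with FEM1B siRNA (adjusted p = 0.00872). The call with FEM1B siRNA was lost without replicate 1 of control-guide cells with FEM1B siRNA (0.86, adjusted p = 0.0616; range over alternatives 0.00652 to 0.0616). In knockout cells Bach2 fell with FEM1B siRNA by 0.86 ± 0.29 (adjusted p = 0.0199), a call lost without replicate 1 of knockout cells with FEM1B siRNA (adjusted p = 0.107) or without replicate 1 or 3 of knockout cells with control siRNA (0.0652 and 0.0765; range over alternatives 0.0154 to 0.107). In control-guide cells its siRNA contrast was −0.10, with a 95% interval of −0.90 to 0.71. The antisense gene Bach2os overlaps 537 bases of its exons and had 25 counts over all libraries, and the strand setting of the counting is not given in the sources used here, so their reads cannot be told apart.

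Nfe2l2, which encodes the KEAP1-controlled activator NRF2 (chromosome 2, 75675513 to 75704641, minus strand), had the smallest adjusted p of the 8 genes for the siRNA and no call for genotype. In knockout cells it had 59.7, 54.8 and 60.5 CPM with FEM1B siRNA, against 105, 114 and 113 CPM with control siRNA. In control-guide cells it had 58.2, 55.7 and 52 CPM with FEM1B siRNA, against 116, 116 and 115 CPM with control siRNA. Every library with FEM1B siRNA lay below every library with control siRNA. Nfe2l2 fell to 0.527 of its control siRNA level in knockout cells (log2 −0.93 ± 0.06, adjusted p = 9.72e-10) and to 0.478 in control-guide cells (−1.07 ± 0.06, adjusted p = 1.07e-10), and both calls held under all 21 alternatives. Changes larger in size were seen for 5.6% and 4.67% of genes tested. The knockout contrast was 0.08 with FEM1B siRNA (95% interval −0.05 to 0.20, adjusted p = 0.312) and −0.06 with control siRNA (−0.19 to 0.06, adjusted p = 0.377), although the 3 knockout values lay just below the 3 control-guide values under control siRNA. With the median of each chromosome removed, the contrast with FEM1B siRNA became a call at 0.17 (adjusted p = 0.0252; range over alternatives 0.0252 to 0.814).

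Nfe2l1, which encodes the proteasome-linked activator NRF1 (chromosome 11, 96817414 to 96829968, minus strand), was lower in knockout cells. With FEM1B siRNA it had 316, 288 and 320 CPM in knockout cells, against 433, 378 and 365 CPM in control-guide cells. With control siRNA it had 299, 318 and 295 CPM in knockout cells, against 333, 355 and 358 CPM in control-guide cells. Knockout and control-guide libraries did not overlap under either siRNA. Nfe2l1 fell by 0.35 ± 0.06 with FEM1B siRNA (adjusted p = 9.92e-05), which held under all 21 alternatives, and by 0.20 ± 0.06 with control siRNA (adjusted p = 0.0133). The call with control siRNA was lost with chromosome medians removed (−0.13, adjusted p = 0.103) and without replicate 3 of knockout cells (0.0596) or of control-guide cells (0.0531), over a range of 0.00178 to 0.103. The siRNA contrast was 0.02 ± 0.06 in knockout cells (adjusted p = 0.844) and 0.17 ± 0.06 in control-guide cells (adjusted p = 0.0318). In control-guide cells that call was lost without replicate 1 with FEM1B siRNA (adjusted p = 0.225) or replicate 1 or 2 with control siRNA (0.122 and 0.0525; range 0.00557 to 0.225).

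Keap1, the adaptor that holds NRF2 for degradation (chromosome 9, 21229730 to 21239361, minus strand), lay between 74.6 and 96.2 CPM in all 12 libraries. It had 96.2, 85.6 and 92.5 CPM in knockout cells with FEM1B siRNA, against 84.8, 74.6 and 80.4 CPM in control-guide cells with FEM1B siRNA. Under control siRNA the values were 84.1, 92.1 and 93.8 CPM in knockout cells, against 87.4, 77.8 and 89.1 CPM in control-guide cells. Its siRNA contrasts were 0.02 in knockout cells (95% interval −0.12 to 0.17) and −0.08 in control-guide cells (−0.23 to 0.06). The genotype contrast was called only with FEM1B siRNA, at 0.19 ± 0.07 (adjusted p = 0.0225), and was 0.09 ± 0.07 with control siRNA (adjusted p = 0.303). The call was lost without replicate 1 or 3 of knockout cells (adjusted p = 0.109 and 0.061) or replicate 2 of control-guide cells with FEM1B siRNA (0.123), over a range of 0.00849 to 0.314. Both genotype values changed sign with chromosome medians removed, to −0.09 (adjusted p = 0.314) and −0.19 (adjusted p = 0.0303), since the median over the 740 genes kept on chromosome 9 was itself 0.29 with FEM1B siRNA and 0.27 with control siRNA. For the other 7 genes the chromosome median lay between −0.154 and −0.009 in both genotype contrasts. The gene Gm16754 overlaps 510 bases of the Keap1 exons on the other strand.

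**Figure D2:**
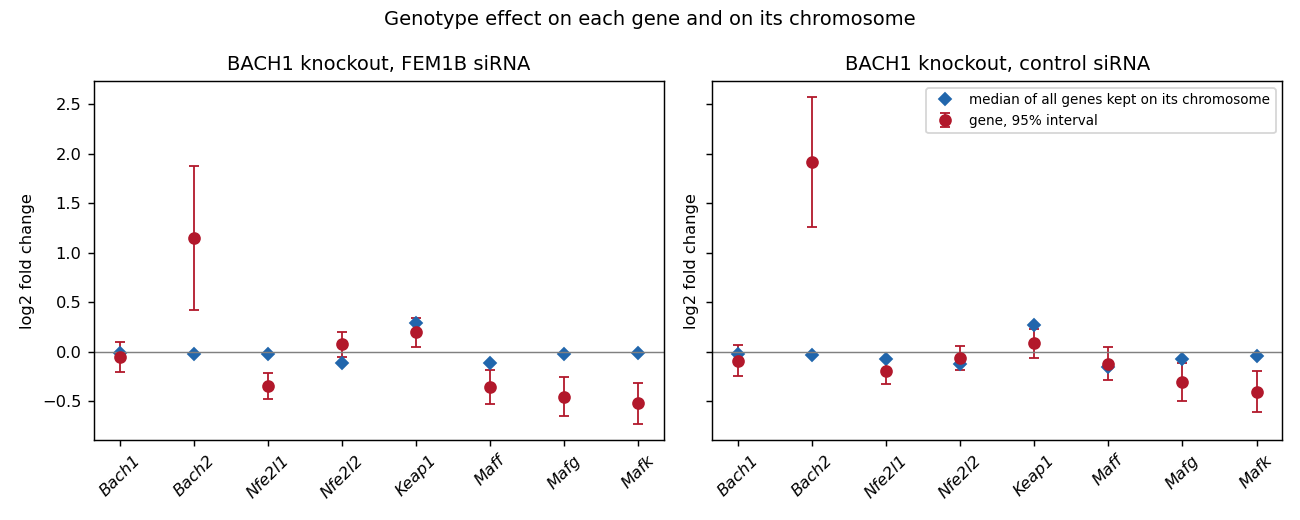
Log2 fold change of knockout over control-guide cells for each gene (red, with 95% interval) and the median of all genes kept on its chromosome (blue diamonds), with FEM1B siRNA on the left and control siRNA on the right. Keap1 lies below the chromosome 9 median of 0.29 and 0.27, and Bach2 lies far above that of chromosome 4 (−0.019 and −0.039).

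The small MAF proteins have no activation domain of their own and serve as obligate partners of the CNC factors. All 3 transcripts were lower in knockout than in control-guide cells with FEM1B siRNA, and Mafg and Mafk also with control siRNA. Maff (chromosome 15, 79346621 to 79359076, plus strand) had 64.3, 80.2 and 67.8 CPM in knockout cells with FEM1B siRNA, against 81.7, 90.1 and 101 CPM in control-guide cells. With control siRNA it had 68.4, 71.9 and 68 CPM in knockout cells, against 77.2, 78.2 and 71.1 CPM in control-guide cells, and these ranges overlapped. Maff fell by 0.36 ± 0.08 with FEM1B siRNA (adjusted p = 0.000863) and stood at −0.12 ± 0.08 with control siRNA (adjusted p = 0.222). With chromosome medians removed the contrast was −0.24 with FEM1B siRNA (adjusted p = 0.0189) and 0.034 with control siRNA. FEM1B siRNA raised Maff in control-guide cells by 0.27 ± 0.08 (adjusted p = 0.0104), a call lost without replicate 3 of the control siRNA (adjusted p = 0.0595; range 0.000786 to 0.0595), and in knockout cells its contrast was 0.03 ± 0.08 (adjusted p = 0.818).

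Mafg (chromosome 11, 120625117 to 120633600, minus strand) had 24.1, 33.1 and 27.2 CPM in knockout cells with FEM1B siRNA, against 38.9, 40.2 and 36.6 CPM in control-guide cells. With control siRNA it had 33.8, 31.4 and 30 CPM in knockout cells, against 36.5, 41.9 and 39.5 CPM in control-guide cells. Knockout libraries were below control-guide libraries under both siRNAs. Mafg fell by 0.46 ± 0.10 with FEM1B siRNA (adjusted p = 0.000447) and by 0.31 ± 0.09 with control siRNA (adjusted p = 0.00962), the call with control siRNA being lost without replicate 2 of control-guide cells (adjusted p = 0.0525; range 0.00095 to 0.0525). The siRNA contrasts of Mafg were −0.17 ± 0.10 in knockout cells (adjusted p = 0.158) and −0.03 ± 0.09 in control-guide cells (adjusted p = 0.85). Replicate 2 of knockout cells with FEM1B siRNA held the highest Mafg value of its group, and without it Mafg was called lower with the siRNA (−0.31, adjusted p = 0.00883; range 0.00883 to 0.614). Its exons share 124 bases with Sirt7, which lies on the same strand and had 9885 counts over all libraries.

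Mafk (chromosome 5, 139791513 to 139802653, plus strand) was lower in knockout cells and higher with FEM1B siRNA. It had 25.6, 32.4 and 27.2 CPM in knockout cells with FEM1B siRNA, against 36, 40.7 and 45.9 CPM in control-guide cells. Under control siRNA Mafk had 24.9, 22.2 and 22.2 CPM in knockout cells, against 28.8, 32.3 and 30.7 CPM in control-guide cells. The 2 genotypes did not overlap under either siRNA, nor did the siRNAs within either genotype. Mafk fell in knockout cells by 0.52 ± 0.10 with FEM1B siRNA (adjusted p = 0.000137) and by 0.41 ± 0.10 with control siRNA (adjusted p = 0.00201), and rose with FEM1B siRNA by 0.42 ± 0.10 in control-guide cells (adjusted p = 0.00144). Those 3 calls held under all 21 alternatives. The rise in knockout cells, 0.30 ± 0.10 (adjusted p = 0.0222), was lost without replicate 2 of the FEM1B siRNA (0.19, adjusted p = 0.138) or replicate 2 or 3 of the control siRNA (0.0712 and 0.0816; range 0.00555 to 0.138). Tmem184a, on the other strand, overlaps 169 bases of the Mafk exons and had 55 counts over all libraries.

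Over the 8 genes, the knockout contrast called 2 higher and 4 lower with FEM1B siRNA, beside a background of 54.6% of all genes tested (28.2% higher, 26.4% lower). With control siRNA it called 1 higher and 3 lower, beside 50.5% (24.2% higher, 26.3% lower). FEM1B siRNA called 2 of the 8 higher and 2 lower in knockout cells, beside 41.7% (21.9% higher, 19.8% lower), and 4 higher and 1 lower in control-guide cells, beside 45% (22.1% higher, 22.9% lower). The libraries of the 2 groups did not overlap for 6 of the 8 genes in the knockout contrast with FEM1B siRNA, beside 57% of all genes, and for 5 with control siRNA, beside 60.3%. For the siRNA they did not overlap for 4 in knockout cells, beside 51.5%, and 5 in control-guide cells, beside 52.1%. Some of these counts lie near the background share and others above or below it. With only 8 genes, and no test of them as a set, the number of calls is not read as a result about the 8 genes. The contrasts share libraries and are not independent. The median log2 fold change of the 8 genes was −0.20 and −0.11 in the knockout contrasts with FEM1B and control siRNA, against medians of 0.013 and −0.021 over all genes. It was 0.02 and 0.07 in the siRNA contrasts in knockout and control-guide cells, against 0.016 and 0.

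**Figure D3:**
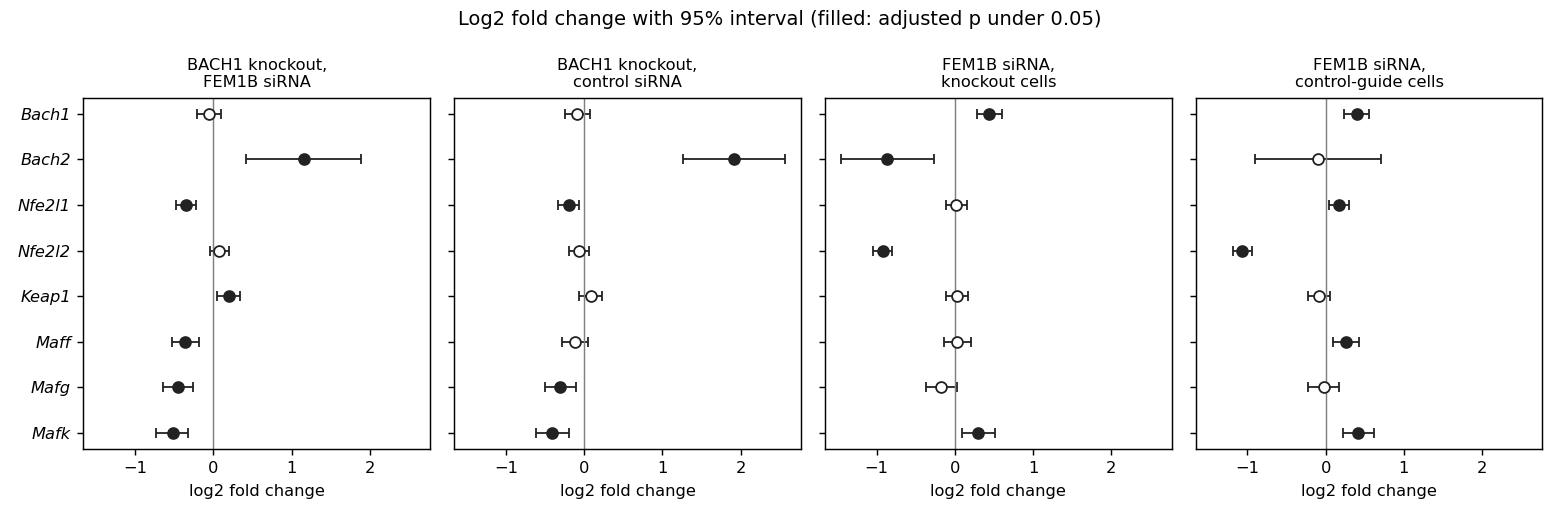
Log2 fold change with 95% interval of each gene in the 4 contrasts (horizontal axes; filled points have an adjusted p under 0.05). Nfe2l2 sits at −0.93 and −1.07 in the siRNA panels and near 0 in the genotype panels, while the small MAF genes lie left of 0 in both genotype panels (Maff with control siRNA stands at 0.034 with chromosome medians removed).

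Whether the siRNA acted differently in the genotypes was tested as an interaction, in which the effect of the siRNA in control-guide cells was subtracted from its effect in knockout cells. None of the 8 genes was called by edgeR, beside a background of 6.08% of all genes (3.48% higher, 2.6% lower), and none had an unadjusted p under 0.05 or was called by DESeq2. The interaction was 0.14 for Nfe2l2 (95% interval −0.04 to 0.32), 0.04 for Bach1 (−0.19 to 0.26) and −0.12 for Mafk (−0.41 to 0.17). It was −0.24 for Maff (adjusted p = 0.213), which became a call of −0.34 without replicate 2 of knockout cells with FEM1B siRNA (adjusted p = 0.0335; range 0.0335 to 0.459). For Bach2 the value was −0.77 with an interval of −1.78 to 0.25, so that no difference was detectable at this depth.

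The transcript ratios of Bach1 to Nfe2l2 and of Nfe2l2 to Keap1 differed by siRNA. In knockout cells Bach1 is the targeted gene, so its transcript level does not measure the repressor there. The ratio of Bach1 to Nfe2l2, each per kilobase of exon, was 0.421 ± 0.0169 in knockout cells with FEM1B siRNA against 0.164 ± 0.0161 with control siRNA, and 0.46 ± 0.023 against 0.167 ± 0.0111 in control-guide cells (SD, n = 3). The ratio of Nfe2l2 to Keap1 was 0.789 ± 0.0206 with FEM1B siRNA against 1.52 ± 0.0292 with control siRNA in knockout cells, and 0.857 ± 0.0623 against 1.69 ± 0.131 in control-guide cells. Both ratios differed between siRNAs by more than the spread of the libraries, and with 3 libraries against 3 an exact permutation test cannot give a p below 0.1. The per-kilobase levels of Bach1, Bach2, Nfe2l1 and Nfe2l2 were also summed. In knockout cells Nfe2l1 made up 72 ± 0.325% of that sum with FEM1B siRNA and 62 ± 1.04% with control siRNA. In control-guide cells Nfe2l1 made up 77.1 ± 1.06% against 64.2 ± 0.882%. Nfe2l2 made up 19.6% against 32.4% in knockout cells, and 15.6% against 30.6% in control-guide cells, so a larger share of Nfe2l1 does not by itself mean a higher level. Bach1 made up 8.23% against 5.3% in knockout cells, and 7.19% against 5.09% in control-guide cells. The sum leaves out the CNC factor Nfe2l3. Per kilobase, Nfe2l3 had 17.1 CPM with FEM1B siRNA and 16.6 CPM with control siRNA in knockout cells. In control-guide cells it had 6.26 against 3.84 CPM per kilobase. The summed small MAF level was 39.6 ± 4.93 CPM per kilobase in knockout cells against 52.4 ± 4.74 in control-guide cells with FEM1B siRNA, and 38.3 ± 0.941 against 43.9 ± 1.81 with control siRNA. Maff supplied 66.2% to 69.8% of that sum in each group.

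**Figure D4:**
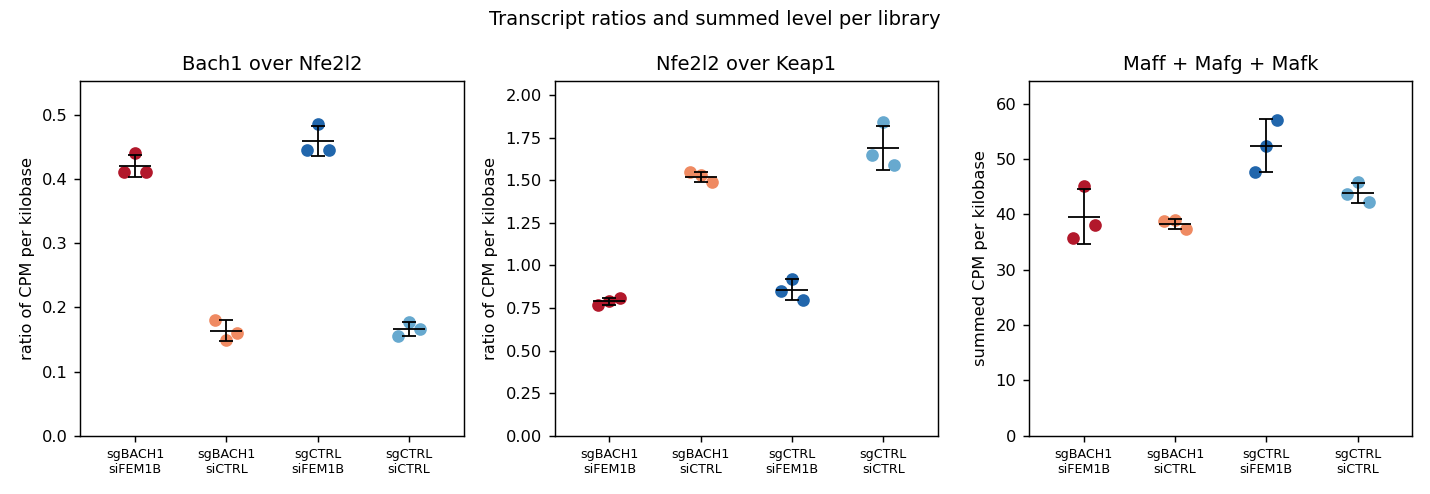
Ratio of Bach1 to Nfe2l2, ratio of Nfe2l2 to Keap1 and summed level of Maff, Mafg and Mafk in each library (points; bars are mean ± SD; all on CPM per kilobase of exon, axes from 0). The Bach1 to Nfe2l2 ratio lies between 0.411 and 0.486 in the 6 libraries with FEM1B siRNA and between 0.149 and 0.181 in the 6 with control siRNA.

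Other genes of the pathway were counted in lists written from general knowledge, and their counts stand beside the shares of all genes called. Of 20 antioxidant and iron genes described as targets of these factors, 7 were higher and 9 lower in knockout cells with FEM1B siRNA, against 28.2% and 26.4% of all genes, and 4 higher and 11 lower with control siRNA, against 24.2% and 26.3%. With chromosome medians removed these were 5 and 7, and 2 and 13. Hmox1, which encodes heme oxygenase 1, rose in knockout cells by 1.69 ± 0.16 with FEM1B siRNA (adjusted p = 3.4e-08) and by 2.22 ± 0.16 with control siRNA (adjusted p = 6.24e-10). Srxn1, the sulfiredoxin gene, fell by 0.80 ± 0.06 (adjusted p = 2.23e-09) and by 0.69 ± 0.06 (adjusted p = 1.27e-08) in the same contrasts. With FEM1B siRNA 4 of the 20 were higher and 8 lower in knockout cells, against 21.9% and 19.8% of all genes, and 2 higher and 12 lower in control-guide cells, against 22.1% and 22.9%. Slc7a11, the cystine transporter subunit, fell with the siRNA by 0.91 ± 0.19 in knockout cells (adjusted p = 0.000762) and by 1.56 ± 0.20 in control-guide cells (adjusted p = 2.94e-06).

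NRF1 is known to activate proteasome subunit genes. Of 31 such genes, 4 were higher and 15 lower in knockout cells with FEM1B siRNA, against 28.2% and 26.4% of all genes. With control siRNA 2 were higher and 14 lower, against 24.2% and 26.3%. With chromosome medians removed 1 subunit was higher in each contrast and the lower counts were 11 and 9, and without single libraries they ranged from 13 to 16 and from 8 to 14, the 8 without replicate 3 of knockout cells with control siRNA. Without single libraries the higher count with FEM1B siRNA ranged from 2 to 6, the 2 without replicate 1 of control-guide cells with FEM1B siRNA. Psmc1, an ATPase subunit of the regulatory particle, fell by 0.53 ± 0.06 with FEM1B siRNA (adjusted p = 6.33e-07) and by 0.42 ± 0.06 with control siRNA (adjusted p = 1.23e-05). Psmd3, another subunit of that particle, fell by 0.46 ± 0.05 (adjusted p = 1.99e-07) and by 0.30 ± 0.05 (adjusted p = 5.51e-05). Of the higher subunits, Psmb5 rose by 0.41 ± 0.07 with FEM1B siRNA (adjusted p = 6.62e-05). It was not called with control siRNA (0.125 ± 0.072, adjusted p = 0.153). A link between the level of Nfe2l1 and these genes was not tested. With FEM1B siRNA, 10 subunits were higher and 6 lower in knockout cells, against 21.9% and 19.8% of all genes, and 11 higher and 2 lower in control-guide cells, against 22.1% and 22.9%. In control-guide cells the lower count was 1 without replicate 3 with FEM1B siRNA or replicate 2 with control siRNA. Of 11 genes for NRF1 processing, 4 were higher and 3 lower in knockout cells with FEM1B siRNA and 6 higher and 2 lower with control siRNA, beside 54.6% and 50.5% of all genes called. With chromosome medians removed, the counts with control siRNA were 3 and 1. The 2 lower genes with control siRNA became 0 without replicate 1 of knockout cells with control siRNA, and 1 without replicate 2 or 3 of that group or replicate 2 of control-guide cells with control siRNA. Ogt, the enzyme that adds O-GlcNAc, rose in knockout cells by 0.42 ± 0.07 (adjusted p = 1.94e-05) and 0.41 ± 0.07 (adjusted p = 2.86e-05).

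Of 12 genes acting on KEAP1 or NRF2, 2 were higher and none lower in knockout cells with FEM1B siRNA, and 3 higher and 3 lower with control siRNA, beside 54.6% and 50.5% of all genes called. With chromosome medians removed these were 2 and 2, and 2 and 4. With FEM1B siRNA they were 4 and 2 without replicate 3 of control-guide cells with FEM1B siRNA, and 1 was lower without replicate 2 of knockout cells with FEM1B siRNA. The siRNA called 2 higher and 2 lower of the 12 in each genotype, beside 41.7% of all genes in knockout cells and 45% in control-guide cells. Leaving out any 1 of the 6 libraries of either contrast moved a count, over 1 to 2 higher and 0 to 3 lower in knockout cells and 0 to 2 higher and 1 to 4 lower in control-guide cells. Cul3, the scaffold of the ligase that takes NRF2, rose in knockout cells by 0.22 ± 0.05 (adjusted p = 0.00106) and 0.30 ± 0.05 (adjusted p = 3.96e-05). Of 10 genes of BACH1 degradation and export, 1 was higher and 1 lower in knockout cells with FEM1B siRNA and 2 higher and 3 lower with control siRNA, beside 54.6% and 50.5% of all genes called. Both contrasts gave 3 and 3 with chromosome medians removed. With FEM1B siRNA the counts ranged over 1 to 3 higher and 1 to 2 lower without single libraries, the highest, 3 and 2, without replicate 3 of control-guide cells with FEM1B siRNA. They were 2 and 2 without replicate 2 of knockout cells with FEM1B siRNA, and 2 were lower without replicate 1 of control-guide cells with FEM1B siRNA or replicate 2 of knockout cells with control siRNA. With control siRNA 1 was lower without replicate 1 or 2 of knockout cells or replicate 2 or 3 of control-guide cells with that siRNA. For the siRNA, 3 of the 10 were higher and 5 lower in knockout cells, and 2 higher and 4 lower in control-guide cells, beside 41.7% and 45% of all genes called. In control-guide cells none was higher without replicate 3 with FEM1B siRNA or replicate 2 with control siRNA, and 1 without replicate 1 with FEM1B siRNA or replicate 3 with control siRNA. The lower genes included the siRNA target Fem1b itself. Fbxo22, a substrate receptor reported to take BACH1 in heme-dependent degradation, fell with the siRNA by 0.50 ± 0.07 in both knockout cells (adjusted p = 1.07e-05) and control-guide cells (adjusted p = 9.14e-06).

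The genes whose log2 CPM was most like that of each of the 8 over the 12 libraries were listed by Pearson's r among the 9636 or 9637 other genes whose mean log2 CPM reached 3, as a description. The 12 libraries fall into 4 groups, so the points share their group's treatment. Nfe2l2 was most like Parva (r = 0.993), Ddx19a (0.991) and Nob1 (0.99), and Bach1 most like Tet3 (0.97), Trafd1 (0.965) and Slc25a23 (0.962). Mafk was most like Fam135a (0.969), Mafg most like Arnt (0.964) and Maff most like Rpn1 (0.959). Nfe2l1 was most like Itfg1 (0.954) and Keap1 most like Paox (0.922). None of the 8 genes was among the 3 most like another, and Bach2, below a mean log2 CPM of 3, could not have been.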

How the data were processed

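Poly(A) RNA was sequenced from 12 libraries in 4 groups of 3 with a stranded mRNA kit, per the labels' protocols. The authors deposited 1 table of raw counts for each gene symbol; all 12 count columns were used and 6056 of 24421 symbols had no count. Per the submitters' processing notes, the tools were featureCounts 1.6.4, Subread, DESeq2 1.26.0 and SAMtools 1.9, on mm10. The annotation and the strand setting were not stated, which affects genes that overlap others. Genes were kept with filterByExpr at a minimum count of 10 and scaled with TMM factors of 0.989 to 1.01. 1 model with a mean per group was fitted to all libraries with edgeR 4.0.16 in R 4.3.3 (quasi-likelihood test, two-sided, 8 residual degrees of freedom). Calls needed an adjusted p (Benjamini-Hochberg, over all genes) under 0.05 and no minimum fold; adjusted p-values come from this test unless another is named. The ± after a log2 fold change is its standard error, the absolute value divided by the square root of F. CPM scales counts to the kept-gene total times the TMM factor and is given with SD. No replicate pair agreed within sampling noise (chi-square 2.54 to 14.1 per degree of freedom). The numerical steps were tested on simulated data.

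Positions and exon lengths came from GENCODE release M21 and promoters from RefSeq, both on GRCm38, the assembly mm10 denotes. The 8 genes, the lists and the rule for naming genes (all 8, Fem1b, up to 4 called genes of each list by size, a fixed set, and the 3 most alike) were chosen with earlier results of these data known. Of the genes the rule gives, those named were picked with their stability in view. Elob and Eloc were matched as Tceb2 and Tceb1. Alternatives were other scaling (DESeq2 size factors, total counts), no or a stricter filter, robust dispersion, a replicate block, chromosome medians removed, only the groups compared, DESeq2 1.42.0, and leaving out each library. The gene most like Bach2 is not reported here.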

Additional observations from a re-analysis of the deposited data

Results flagged for a closer look

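Of 55 named genes outside the group of 8, the siRNA effect in knockout cells differed from that in control-guide cells by the edgeR interaction test for 6, beside 6.08% of all genes. The naming rule takes genes called in the interaction itself, so nothing is read from that count. Nfe2l3, the CNC factor NRF3, had an interaction of −0.67 ± 0.14 (adjusted p = 0.00839): it averaged 50.8 ± 6.02 CPM with FEM1B siRNA and 49.4 ± 0.602 CPM with control siRNA in knockout cells, and 18.6 ± 1.33 against 11.4 ± 1.58 CPM in control-guide cells (SD, n = 3). Osgin1 had 1.11 ± 0.10 (adjusted p = 8.18e-06), with 68.3 against 51.9 CPM in knockout cells and 93.5 against 154 CPM in control-guide cells. Fth1, the ferritin heavy chain, had 0.65 ± 0.07 (adjusted p = 5.97e-05), with 2920 against 2870 CPM and 1880 against 2900 CPM; near-identical copies make its counts uncertain. Gclm had 0.34 ± 0.09 (adjusted p = 0.0318), Prdx1 0.31 ± 0.08 (adjusted p = 0.0234) and Atf3 −0.44 ± 0.12 (adjusted p = 0.0392), and these 3 lost the call when some single libraries were left out.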

How the results depend on the processing

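Over 827 combinations of the 40 results on single genes and the alternatives, 788 kept their direction and side of the threshold, 16 changed sign without a call under either setting, 18 lost a call, 3 gained one and 2 with a call reversed. The 2 reversals, and those of other pathway genes, came with chromosome medians removed: in knockout cells with control siRNA Keap1 was at −0.190, Dpp3 at −0.041, Btrc at −0.189, Fbxo22 at −0.217 and Cul2 at 0.051, and with FEM1B siRNA Keap1 was at −0.087, Dpp3 at −0.076, Btrc at −0.298, Fbxo22 at −0.222, Psma6 at 0.020, Psma4 at −0.072 and Fosl1 at −0.105; this setting subtracts the median of each gene's chromosome. The interaction was called for 807 genes, for 1393 with no filter on low counts and for 297 to 1859 without single libraries, the highest without replicate 2 of knockout cells with FEM1B siRNA; the cause was not tested. Its split was 462 higher and 345 lower, against 369 and 441 with DESeq2 size factors. Without single libraries, 2 to 4 of the 8 genes were called for the siRNA in knockout cells and 0 to 1 for the interaction. Same-numbered libraries correlated at −0.115 to 0.079 in their deviations from group means, and differently numbered ones at −0.144 to 0.135. No shared effect of the number was seen, but whether same-numbered libraries were handled together cannot be told from this. With a replicate block 6 and 4 of the 8 genes were called for genotype (FEM1B and control siRNA). For the siRNA the counts were 4 and 5 (knockout and control-guide cells) and for the interaction 0, as without the block. Low counts limit Bach2, where the siRNA contrast in control-guide cells spans −0.90 to 0.71.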

Other observations

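Of the 6 CNC and large MAF factors outside the group of 8, 3 were kept by the filter. Among these, 1 was higher and 1 lower in knockout cells under each siRNA, beside 54.6% of all genes called with FEM1B siRNA and 50.5% with control siRNA. Without some single libraries the filter kept 4, and 2 were higher with FEM1B siRNA. Nfe2l3 rose in knockout cells by 1.45 ± 0.10 with FEM1B siRNA (edgeR, adjusted p = 1.34e-10) and by 2.12 ± 0.10 with control siRNA (adjusted p = 6.88e-13). Of 8 bZIP genes of the AP-1 and ATF families, 2 were higher and 3 lower in knockout cells under each siRNA, beside 54.6% of all genes called with FEM1B siRNA and 50.5% with control siRNA. The counts with control siRNA were 1 and 2 with chromosome medians removed, and the lower count ranged from 2 to 4 with FEM1B siRNA and from 2 to 3 with control siRNA without single libraries. Junb rose by 0.36 ± 0.08 with FEM1B siRNA (adjusted p = 0.000552) and by 0.55 ± 0.08 with control siRNA (adjusted p = 5.26e-06), and Jund fell by 0.40 ± 0.08 (adjusted p = 0.000202) and by 0.46 ± 0.08 (adjusted p = 5.32e-05).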
